A study of Mus musculus with 4 samples.

Results

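CCR7+ DCs were the cells that the authors named DC3 in their annotation of the CD45+ immune infiltrate, 196 of 33368 cells carrying 17 cell type names. Every cell of that name was used, 89 from NTT, 12 from RTT, 14 from RTT_ROSA26 and 81 from RTT_PTGS12KO. The infiltrate came from melanomas grown in Rag2-/- mice, a host without its own T and B cells, from YUMM1.7 mouse melanoma cells that express ovalbumin. OT-1 T cells, which are specific for ovalbumin, were given on day 7, and tumours were taken on day 10, 72 h later, so all 4 samples share host, antigen and T cell therapy. The injected line was naive to targeted therapy in NTT (line Y1.7_NTT_3A6) and resistant to it in RTT (line Y1.7_RTT_2B12). RTT_ROSA26 was a resistant line given a control guide against Rosa26, and RTT_PTGS12KO was a resistant line in which Ptgs1 and Ptgs2, the genes of both cyclooxygenases, were knocked out. The knockout was in the cancer cells and not in the DCs, and the study's methods describe knockout lines grown from single cells. The labels give 1 sample per group, and the study's legends describe the tumours of a group as pooled for this assay.

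CCR7+ DCs are dendritic cells that have taken up antigen and matured. They switch on the chemokine receptor CCR7, which guides them along CCL19 and CCL21 towards lymph nodes, reorganise their cytoskeleton with fascin, and carry both costimulatory molecules and brakes on T cells such as PD-L1 and CD200. Both conventional subsets, the cross-presenting cDC1 and the CD4-directed cDC2, can enter this state. In tumours, CCR7+ DCs that stay in the tissue can hold T cells near vessels and restimulate them.

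Each group is 1 sample, so that no difference could be set against replicates, no test was made and no p-value is given. All intervals are 95% intervals, exact for shares (Clopper-Pearson), UMI sums (Poisson) and ratios (conditional), and cover counting error only. RTT_ROSA26 is also set against RTT, since neither of these resistant lines lost its cyclooxygenase genes, although they are different lines and so no replicates of each other. Comparisons of the samples share libraries, so their values are set side by side and not correlated. CCR7+ DCs held 633534 UMIs in NTT and 117204 in RTT, and 118386 in RTT_ROSA26 and 747180 in RTT_PTGS12KO, with medians of 6297, 8208.5, 6722 and 7869 UMIs per cell. Levels are UMIs per 1000000 UMIs of the summed CCR7+ DCs of a sample (CPM), and 4 values given without names are those of NTT, RTT, RTT_ROSA26 and RTT_PTGS12KO. At these depths 3 UMIs equal 4.74 CPM in NTT and 25.6 in RTT, and 25.3 in RTT_ROSA26 and 4.02 in RTT_PTGS12KO, the limit that a count of 0 allows.

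The name held against its markers. Ccr7 (mm10 build, GRCm38; chr11:99144196-99155077, minus strand) had UMIs in 85 of 89 cells of NTT, in all cells of RTT and RTT_ROSA26, and in 80 of 81 cells of RTT_PTGS12KO. The median cell had UMIs of 7, 6, 7 and 7 of the 9 markers Ccr7, Tbc1d4, Ccl22, Cd200, Fscn1, Ramp3, Il12b, Cacnb3 and Il4i1. After each cell was thinned to 3000 UMIs, Ccr7 was seen in 93.6% of CCR7+ DCs, and in 1.66% of cDC1s, 4.98% of cDC2s, 0.287% of monocytes and 0.173% of macrophages. Among all 33368 cells, 202 had a Ccr7 UMI and at least 4 of the markers, and 178 of those carried the name DC3. The genes leading the cluster over all other cells were Ccr7, Ccl22, Tbc1d4 and Fscn1, a description and not a finding since the cells were clustered on such genes.

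Genes of both conventional subsets were present, in an uneven pattern. Irf8, the transcription factor of cDC1s, reached 1232 CPM in CCR7+ DCs, against 1428 in cDC1s and 195 in cDC2s. Batf3, another cDC1 factor, reached 168 CPM, against 214 in cDC1s and 19.2 in cDC2s. The cDC1 surface genes were low, with Xcr1 at 1.86 CPM against 263 in cDC1s and Clec9a at 9.90 against 155. Of the cDC2 genes, Mgl2 reached 176 CPM against 414 in cDC2s, and Cd209a 1.86 against 82.9. The DC genes Flt3 and Zbtb46 stood at 53.8 and 50.7 CPM in CCR7+ DCs, and below 0.5 CPM in monocytes and macrophages.

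A few cells also carried RNA of other cell types. In 13 of the 196 cells, C1qa, C1qb, C1qc, Apoe, Lyz2, S100a8 and S100a9, genes of macrophages, monocytes and neutrophils, together took at least 1% of the UMIs. NTT had 1 of these mixed cells and RTT 3, and RTT_ROSA26 had 2 and RTT_PTGS12KO 7, and all 13 had Ccr7 UMIs. They held 3.92% of the CCR7+ DC UMIs in NTT and 42.2% in RTT, and 26.1% in RTT_ROSA26 and 18.4% in RTT_PTGS12KO. The 12 macrophage markers summed to 2117, 23105, 6994 and 3133 CPM in the same order, and to 1155, 502, 480 and 982 CPM once the mixed cells were left out. Results were also computed without them, and such values are given beside a result as those without the mixed cells; whether they are doublets was not tested. The 9 monocyte markers summed to 2903, 12730, 3235 and 2125 CPM, and to 2658, 1889, 1109 and 1145 without the mixed cells, so that NTT then had the highest sum. The 7 neutrophil markers summed to 766, 350, 397 and 1131 CPM, and to 792, 398, 423 and 289 without the mixed cells. T cell markers summed to between 2.68 and 17.1 CPM, NK cell markers to between 13.4 and 42.2, and tumour and stroma markers to between 1.58 and 10.7, with Cd3e, Siglech and Mlana at 0 UMIs in every sample.

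CCR7+ DCs made up a larger share of the DCs in NTT and in RTT_PTGS12KO than in the 2 resistant controls. They were 89 of 403 DCs in NTT (22.1%, interval 18.1 to 26.5) and 81 of 462 in RTT_PTGS12KO (17.5%, 14.2 to 21.3). In RTT they were 12 of 193 DCs (6.22%, 3.25 to 10.6), and in RTT_ROSA26 14 of 312 (4.49%, 2.47 to 7.41). The log2 ratio of these shares was 1.83 (0.95 to 2.83) between NTT and RTT and 1.97 (1.14 to 2.90) between RTT_PTGS12KO and RTT_ROSA26. Between the 2 resistant controls it was -0.47 (-1.69 to 0.77), and for RTT_PTGS12KO against NTT -0.33 (-0.79 to 0.12). The intervals of the first 2 ratios exclude 0 and those of the last 2 do not, as far as counting error goes.

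The number of DCs as a whole moved differently. All DCs together were 4.56% of CD45+ cells in RTT_ROSA26 and 4.49% in RTT_PTGS12KO, a log2 ratio of -0.02 (-0.23 to 0.19), so that the knockout comparison differed in the makeup of the DCs and not in their sum. The cDC2s, at 4.21% of CD45+ cells in RTT_ROSA26 and 3.34% in RTT_PTGS12KO, were the class on the other side of that ratio. In NTT against RTT the sum of DCs differed too, 4.88% against 2.42%, a log2 ratio of 1.01 (0.76 to 1.26). The sum in RTT_ROSA26 lay above that of RTT as well, with a log2 ratio of 0.91 (0.65 to 1.18), so RTT was the low sample.

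The pool was loaded on the chip 3 times, as read from a number in the cell names. Each load gives its own share of the same cells. CCR7+ DCs were 1.06%, 1.12% and 1.05% of CD45+ cells in the loads of NTT and 0.690%, 0.913% and 0.757% in those of RTT_PTGS12KO. In RTT the loads held 5, 6 and 1 of these cells (0.192%, 0.223% and 0.0375%), and in RTT_ROSA26 3, 7 and 4 (0.131%, 0.312% and 0.173%). The lowest load of either larger sample was above the highest load of both resistant controls, although loads repeat the capture and not the tumour.

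**Figure D1:**
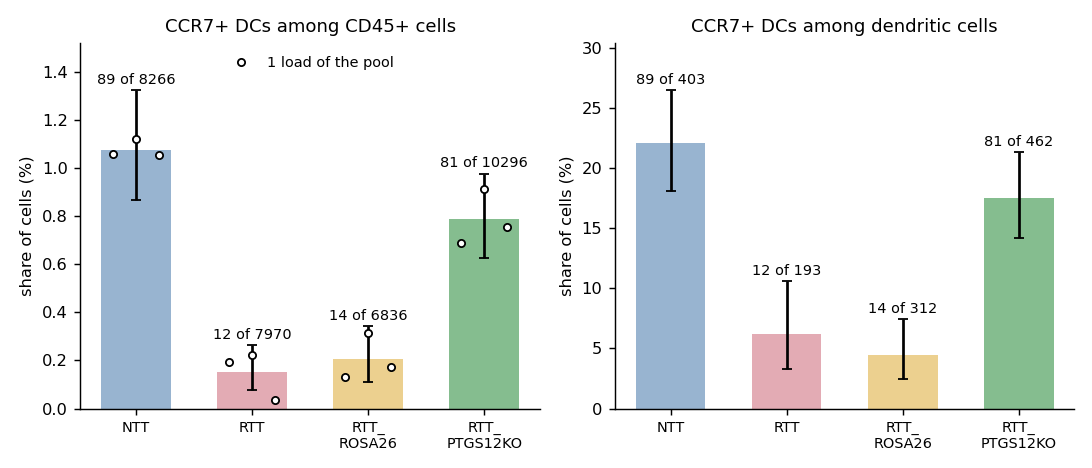
Share of CCR7+ DCs among all CD45+ cells (left, with the 3 loads as open circles) and among DCs (right), in percent of cells on a linear axis from 0, with exact 95% binomial intervals as error bars and the cell numbers above. The bars of NTT (22.1% of DCs) and RTT_PTGS12KO (17.5%) stand above those of RTT (6.22%) and RTT_ROSA26 (4.49%).

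Of the markers that name these cells, some were close in the 4 samples and others were not, a description since the cells were chosen on them. Ccr7 reached 2170 CPM in NTT and 1792 in RTT, and 2416 in RTT_ROSA26 and 2329 in RTT_PTGS12KO. Its log2 ratio over RTT was 0.28 (0.07 to 0.49) in NTT, while RTT_PTGS12KO gave -0.05 (-0.23 to 0.13) over RTT_ROSA26 and 0.10 (0.00 to 0.20) over NTT. Without the mixed cells the first of these was -0.24 (-0.47 to 0.00), so no order of the samples in Ccr7 holds. Fscn1, which encodes the actin bundler fascin, stood at 377, 401, 287 and 372 CPM. Its log2 ratio without the mixed cells was -0.77 (-1.24 to -0.28) in NTT against RTT and -1.21 (-1.98 to -0.48) in RTT_ROSA26 against RTT. Ccl22 and Il4i1, given below with the chemokines and checkpoint genes, differed by more than 2-fold in some comparisons. Cd83, a surface marker of DC maturation, stood at 879, 555, 600 and 708 CPM, and 905, 767, 778 and 768 without the mixed cells.

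Of the 20 maturation and NF-kB genes, 17 reached 50 CPM in the mean of the 4 samples, the minimum for all counts below. None of the 17 was at least 2-fold higher or lower in NTT than in RTT, where 10.1% and 5.85% of all 2292 genes at that minimum were. In RTT_PTGS12KO against RTT_ROSA26 0 were higher and 1, Tnfaip3, an inhibitor of NF-kB, was lower (112 against 245 CPM), beside 6.81% and 4.54% of all genes. The ratio of Tnfaip3 went from -1.12 to -0.38 (-1.22 to 0.56) without the mixed cells, where Birc3 was the 1 lower gene. The median log2 ratio of the list was 0.36 in NTT against RTT, -0.34 in RTT_PTGS12KO against RTT_ROSA26, 0.38 in RTT_ROSA26 against RTT and -0.31 in RTT_PTGS12KO against NTT, while the medians of all genes lay between -0.08 and 0.07. With each load left out the second of these ran from -0.75 to 0.092 and the third from 0.045 to 0.60, so the sign of the second is not settled.

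Among the subunits, Relb, the NF-kB subunit tied to DC maturation, was at 391, 230, 338 and 266 CPM, and the log2 ratio of NTT over RTT, 0.76 (0.19 to 1.40), became 0.31 (-0.32 to 1.01) without the mixed cells. Rel was at 879, 640, 946 and 735 CPM. Of the 15 migration and cytoskeleton genes at the minimum, 3 were at least 2-fold higher in NTT than in RTT (Cnn2, Sema7a and Icam1) beside 10.1% of all genes, and 1, the adhesion molecule Icam1, in RTT_PTGS12KO than in RTT_ROSA26 (145 against 59.1 CPM), where 1 of 15 is a share near the 6.81% of all genes. Sema7a (1.30 to 0.58) and Cnn2 (1.10 to 0.85) fell under 2-fold in NTT against RTT without the mixed cells.

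Cells within a sample differed far more than the medians of the samples did. The share of a cell's UMIs in H2-Aa, H2-Ab1, H2-Eb1 and Cd74 ran from 0.0193% over a median of 1.40% to 4.70% in NTT, and from 0.0192% over 1.49% to 5.20% in RTT_PTGS12KO. In RTT it ran from 0.0302% over 0.484% to 3.09%, and in RTT_ROSA26 from 0.0330% over 1.44% to 4.69%. The 4 ranges overlap almost entirely, and RTT has the lowest median. The type II interferon-stimulated genes took a median of 0.418% of a cell's UMIs in NTT and 0.193% in RTT, and of 0.152% in RTT_ROSA26 and 0.398% in RTT_PTGS12KO. The highest cells reached 1.90%, 0.845%, 0.401% and 1.68%, so that no cell of RTT_ROSA26 reached the median of NTT. By these medians RTT lay close to RTT_ROSA26, while without the mixed cells its median was 0.329% over 9 cells.

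**Figure D2:**
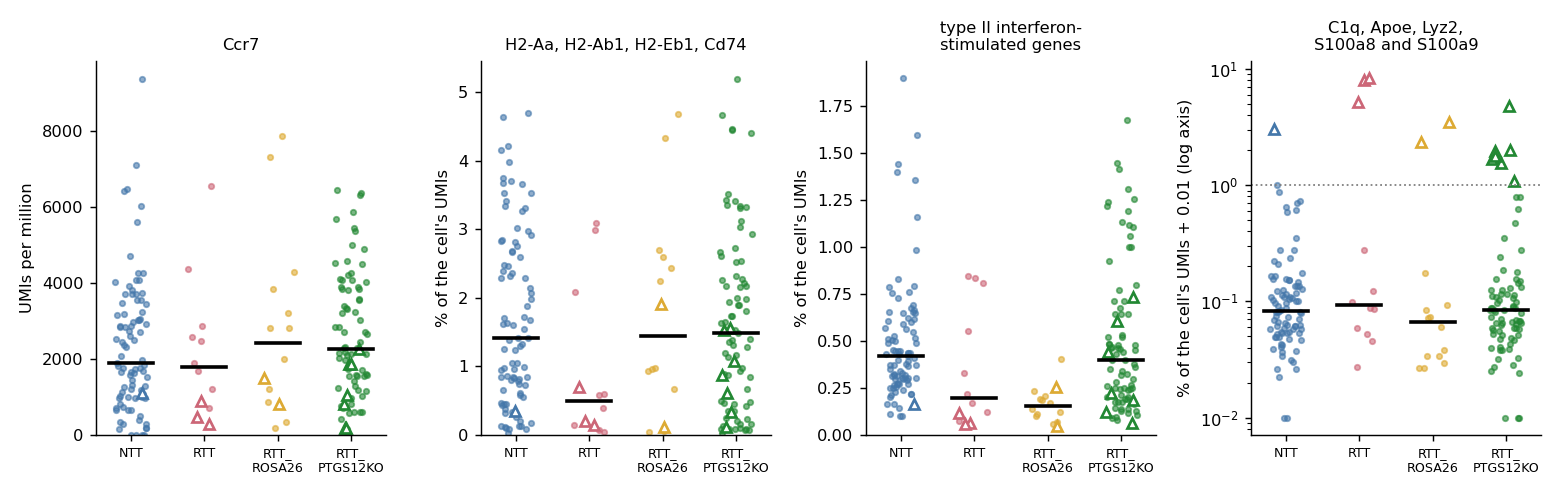
Each point is 1 CCR7+ DC, with black lines at the sample medians and triangles for the mixed cells. From left to right the vertical axes show Ccr7 in UMIs per 1000000, the percent of a cell's UMIs in 4 MHC class II genes, the percent in the type II interferon-stimulated genes, and the percent in C1q, Apoe, Lyz2, S100a8 and S100a9 (log axis, 0.01 added, dotted line at the 1% limit). All cells of RTT_ROSA26 lie at or below 0.401% in the third panel, and cells with almost no class II RNA occur in every sample of the second.

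MHC class II genes were lower in the CCR7+ DCs of RTT than in those of the other 3 samples. These molecules show peptides of taken-up antigen to CD4 T cells, with H2-Aa, H2-Ab1 and H2-Eb1 as their chains, Cd74 as the invariant chain that guides loading, H2-DMa and H2-DMb1 as peptide editors and Ciita as the coactivator that drives the set. H2-Aa reached 6208 CPM in NTT and 2833 in RTT, and 6006 in RTT_ROSA26 and 5987 in RTT_PTGS12KO. H2-Ab1 reached 3992, 1519, 4452 and 3683 CPM. RTT thus lay apart from the other samples, which were close together. Cd74 reached 1340, 529, 1428 and 1209 CPM in the same order. Ciita had 62 UMIs in NTT (97.9 CPM), 1 in RTT (8.53), 4 in RTT_ROSA26 (33.8) and 47 in RTT_PTGS12KO (62.9), and it reached the minimum of 50 CPM only through NTT and RTT_PTGS12KO, so that its place in the counts of this list and the type II list is no support for them.

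Of the 13 class II genes at the minimum, 9 were at least 2-fold higher in NTT than in RTT and 1, Lgmn, was lower, beside 10.1% and 5.85% of all genes. Their median log2 ratio was 1.16 in NTT against RTT and 1.25 in RTT_ROSA26 against RTT, where 8 were higher and 1 lower, beside 7.9% and 9.03% of all genes. None passed 2-fold in RTT_PTGS12KO against RTT_ROSA26 (median -0.24) or in RTT_PTGS12KO against NTT (median -0.15, with 1.18% and 1.66% of all genes past 2-fold). In RTT_ROSA26 against RTT 6 of the 13 were at least 2-fold higher and 0 lower without the mixed cells, beside 12.9% and 12.9% of all genes, and the median of 1.25 ran from 0.32 to 2.28 with each load left out.

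The mixed cells moved with this difference. H2-Aa was higher in NTT than in RTT by 1.13 (0.97 to 1.30) on the log2 scale with all cells and by 0.59 (0.42 to 0.77) without the mixed cells. H2-Eb1 went from 1.12 (0.95 to 1.30) to 0.62 (0.44 to 0.81), and H2-Ab1 from 1.39 (1.17 to 1.62) to 0.89 (0.65 to 1.13). Without the mixed cells 4 of the 13 genes were at least 2-fold higher in NTT than in RTT and 0 lower, beside 12.6% and 5.93% of all 2275 genes, and the median was 0.79. Lgmn, a lysosomal protease that macrophages also use, changed sides, from 398 against 1101 CPM to 361 against 73.8. With only 12 cells in RTT the loads weigh as much, and leaving out each load in turn moved the median of NTT against RTT between 0.44 and 2.11.

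The H2 genes of the class II list lie together on chromosome 17, with 18043 bases between H2-Aa and H2-Eb1. The 150 bases before the RefSeq start of each are shown because both hold a Y box, CTGATTGG, the element of class II promoters that NF-Y binds, here in capitals and in the sense direction of the gene. The box lies 51 to 44 bases before the start of H2-Aa (chr17:34287824-34287973, minus strand, GRCm38.p6) and 62 to 55 bases before that of H2-Eb1 (chr17:34305717-34305866, plus strand).
H2-Aa: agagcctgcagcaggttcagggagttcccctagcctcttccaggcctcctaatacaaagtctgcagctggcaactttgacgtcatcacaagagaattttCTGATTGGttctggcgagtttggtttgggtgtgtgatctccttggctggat
H2-Eb1: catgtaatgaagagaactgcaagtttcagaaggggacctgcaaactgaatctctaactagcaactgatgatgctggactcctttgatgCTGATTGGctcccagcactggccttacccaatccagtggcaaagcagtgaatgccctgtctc
On either strand the box was found in 4 of 12 class II genes with a window, against 999 of 27025 genes in all (3.70%), a description of letters and not of binding.

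MHC class I genes, which present peptides to CD8 T cells such as OT-1, were higher in NTT than in RTT across the list. H2-K1, the chain that presents the ovalbumin peptide seen by OT-1, reached 3479 CPM in NTT and 1928 in RTT, and 2078 in RTT_ROSA26 and 2465 in RTT_PTGS12KO. B2m, the common light chain, reached 5613, 3584, 3151 and 4482 CPM. Tap1, which carries peptides into the endoplasmic reticulum, reached 327, 171, 92.9 and 257 CPM. In each of the 3 genes NTT was highest and RTT_PTGS12KO second.

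All 17 class I genes at the minimum were higher in NTT than in RTT, 5 of them at least 2-fold (H2-Q6, H2-Q7, H2-T22, H2-T23 and Tap2) beside 10.1% of all genes, with a median log2 ratio of 0.79. When the mixed cells were left out 15 of the 17 were higher, 2 of them at least 2-fold (H2-T22 and H2-M3), no more than the 12.6% of all genes, and the median was 0.64. H2-K1 had a ratio of 0.85 (0.65 to 1.06), and 0.64 (0.40 to 0.88) without the mixed cells. In RTT_PTGS12KO against RTT_ROSA26 the median was 0.27, and 2 of the 17, the transporters Tap1 and Tap2, were at least 2-fold higher beside 6.81% of all genes. The comparison of the resistant controls had a median of 0.11, and RTT_PTGS12KO against NTT one of -0.39. The H2-Q and H2-T genes include near-identical copies, so their single values are uncertain.

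Type II interferon-stimulated genes were lowest in RTT_ROSA26 in most members, and RTT lay between it and the larger samples or near it, depending on the measure. They are induced mainly by interferon-gamma, which activated T and NK cells make, and include Irf1, a factor of the response, the guanylate-binding proteins and immunity-related GTPases that attack intracellular pathogens, and Cxcl9, which draws T cells bearing CXCR3. All 17 genes at the minimum were higher in RTT_PTGS12KO than in RTT_ROSA26, with a median log2 ratio of 1.53. Of them 10 were at least 2-fold higher, beside 6.81% of all genes. Gbp7 and Gbp8 reached the minimum only through RTT_PTGS12KO, so their places among the 10 are no support for that count. In RTT_ROSA26 against RTT, 10 were at least 2-fold lower and 1, Ciita, higher, beside 9.03% and 7.9% of all genes, with a median of -1.39. These ratios of summed UMIs rest on 12 cells in RTT. The per-cell medians of 0.193% in RTT and 0.152% in RTT_ROSA26 lay closer together than 0.152% and the 0.398% of RTT_PTGS12KO. Without the mixed cells these medians were 0.329%, 0.152% and 0.414%, so that RTT then lay closer to RTT_PTGS12KO. In RTT_PTGS12KO against NTT none passed 2-fold, where only 1.18% and 1.66% of all genes did, and the median was 0.06.

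Single genes show the order. Cxcl9 reached 878 CPM in NTT and 657 in RTT, and 186 in RTT_ROSA26 and 1242 in RTT_PTGS12KO. In RTT_ROSA26 its UMIs came almost all from 1 mixed cell, and without the mixed cells it stood at 22.9 CPM there and at 1107 in RTT. Its log2 ratio for RTT_PTGS12KO against RTT_ROSA26 was 2.73 (2.13 to 3.42), and 5.93 (4.13 to 9.04) without the mixed cells. Gbp2 reached 327, 239, 110 and 529 CPM, a ratio of 2.26 (1.48 to 3.19) for the knockout comparison. Iigp1 had 127, 9, 2 and 197 UMIs (200, 76.8, 16.9 and 264 CPM), a ratio of 3.89 (2.09 to 7.02). RTT_ROSA26 was lowest in all 3 genes.

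Other members followed. Ifi47 reached 196, 102, 25.3 and 182 CPM, a ratio of 2.80 (1.27 to 5.14) in RTT_PTGS12KO against RTT_ROSA26. Gbp5 had 77, 11, 0 and 95 UMIs and was at least 5.02-fold higher in RTT_PTGS12KO than in RTT_ROSA26. Irf1 reached 369, 324, 177 and 336 CPM, and its ratio of 0.92 (0.28 to 1.64) stayed under 2-fold. RTT_ROSA26 was lowest in these genes too.

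For NTT against RTT the list was less clear. Of the 17 genes 4 were at least 2-fold higher in NTT (among them Iigp1, Cd274 and Ciita) and 0 lower, beside 10.1% and 5.85% of all genes, with a median of 0.66. Iigp1 had a ratio of 1.37 (0.41 to 2.55), and 0.65 (-0.32 to 1.81) without the mixed cells. Without the mixed cells 18 genes reached the minimum, 2 were higher and 2 lower, near the 12.6% and 5.93% of all genes, and the median was 0.15. Leaving out the mixed cells did not weaken the knockout comparison, where 13 of 18 were then at least 2-fold higher and 0 lower, beside 8.48% and 6.51% of all genes, with a median of 1.7, or 1.42 with the 2 genes at 0 UMIs set to their bound. In RTT_ROSA26 against RTT 12 of 18 were then lower beside 12.9% of all genes.

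Gbp2 and Gbp5 lie in the same gene cluster on chromosome 3, and their promoters are shown because each holds a motif of the interferon response. Gbp2 has TTTCACTTTC 59 to 50 bases before its start, the reverse strand of the interferon-stimulated response element (GAAA and GAAA with 2 bases between them), and Gbp5 has TTCTCAGAA 52 to 44 bases before its start, a gamma-activated sequence TTCNNNGAA. The windows are chr3:142620513-142620662 and chr3:142496784-142496933 (both plus strand, GRCm38.p6, RefSeq), with the motif in capitals.
Gbp2: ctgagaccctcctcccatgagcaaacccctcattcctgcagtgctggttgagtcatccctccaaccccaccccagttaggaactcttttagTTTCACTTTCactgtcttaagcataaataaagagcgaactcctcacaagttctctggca
Gbp5: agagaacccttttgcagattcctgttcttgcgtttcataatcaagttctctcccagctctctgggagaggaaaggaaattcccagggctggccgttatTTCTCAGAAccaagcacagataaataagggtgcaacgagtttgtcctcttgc
On both strands the response element was found in 10 of 18 genes of the type II list with a window, against 499 of 27025 genes (1.85%), and the gamma-activated sequence in 9 of 18 against 1288 of 27025 (4.77%). In the class II list these were 1 of 12 and 0 of 12. Both lists are known interferon targets, so the shares describe the lists and not this experiment.

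**Figure D3:**
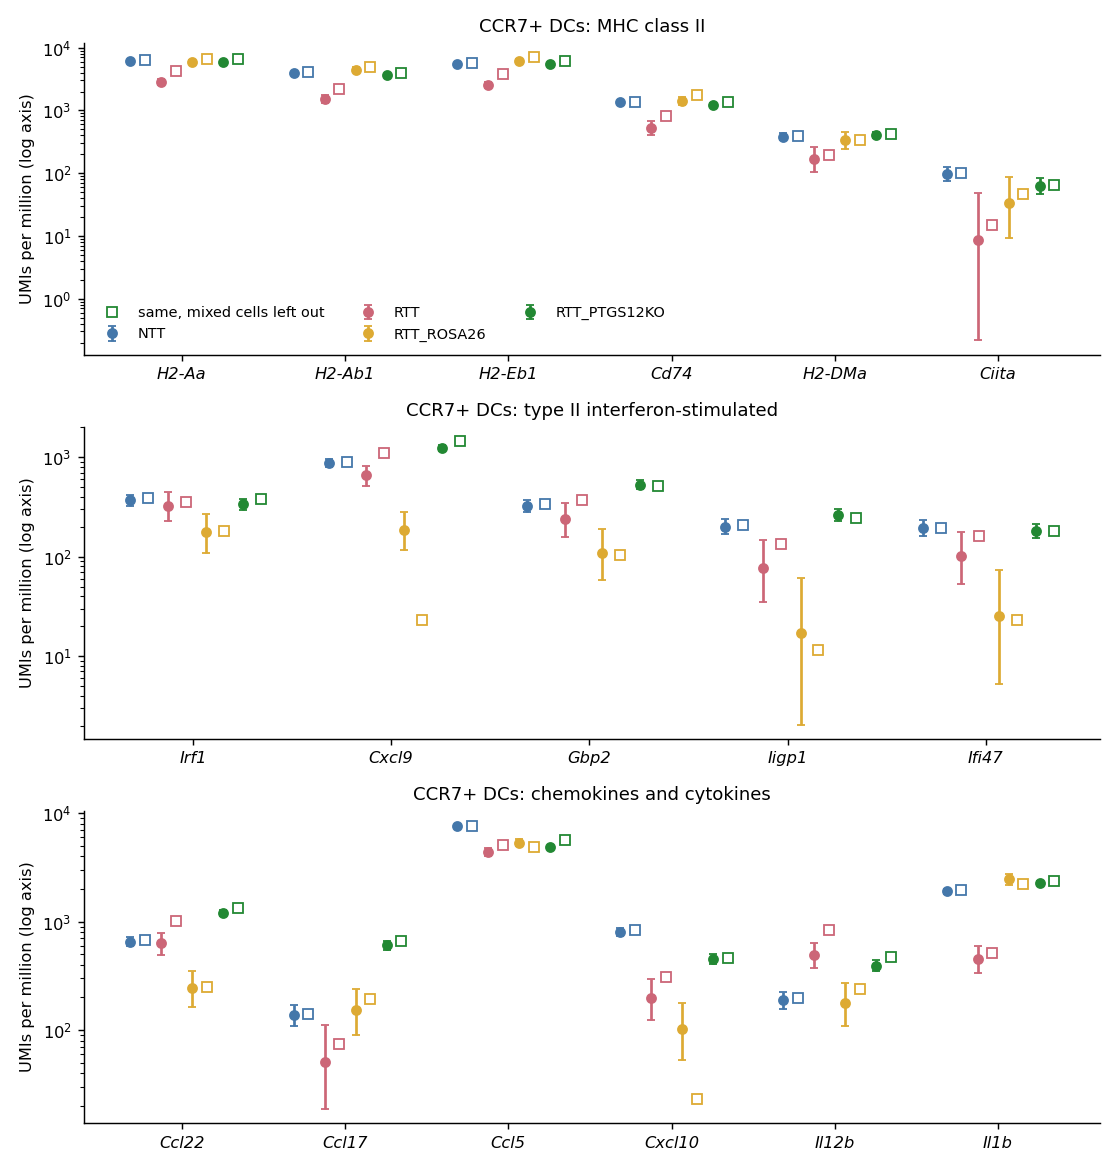
Level of single genes in CCR7+ DCs in UMIs per 1000000 on log axes, for MHC class II (top), type II interferon-stimulated genes (middle), and chemokines and cytokines (bottom). Filled points with exact 95% Poisson intervals use all cells and open squares leave out the mixed cells. H2-Aa is lowest in RTT (2833), Gbp2 lowest in RTT_ROSA26 (110), and Ccl17 highest in RTT_PTGS12KO (608).

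Type I interferon-stimulated genes, the antiviral set induced by interferon-alpha and interferon-beta, were highest in NTT as a list. They took a median of 0.717% of a cell's UMIs in NTT and 0.331% in RTT, and of 0.264% in RTT_ROSA26 and 0.410% in RTT_PTGS12KO. With each load left out the median ran from 0.638% to 0.735% in NTT and from 0.303% to 0.584% in RTT. It ran from 0.260% to 0.433% in RTT_ROSA26 and from 0.348% to 0.456% in RTT_PTGS12KO, so only the place of NTT held. Ifi27l2a reached 2115, 734, 1047 and 1123 CPM, which is a log2 ratio of 1.53 (1.21 to 1.86) of NTT over RTT and of -0.91 (-1.04 to -0.79) of RTT_PTGS12KO over NTT. Rsad2, which encodes the antiviral enzyme viperin, reached 114, 25.6, 25.3 and 36.1 CPM. It reached the minimum of 50 CPM only through NTT, so its count among the genes past 2-fold is no support for the list.

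The 2 samples with the most CCR7+ DCs differed in this list. In RTT_PTGS12KO against NTT 18 of the 19 genes at the minimum were lower, 5 of them at least 2-fold (Rsad2, Oas1a, Oasl2, Irf7 and Xaf1) beside 1.66% of all genes, with a median of -0.51. Without the mixed cells 18 were again lower, 3 of them at least 2-fold, beside 2.29% of all genes, and the median was -0.48. In NTT against RTT 5 of 19 were at least 2-fold higher (median 0.53) beside 10.1% of all genes, and 3 without the mixed cells (median 0.26), near the 12.6% of all genes, and with each load left out the median ran from 0.15 to 0.76. RTT_PTGS12KO against RTT_ROSA26 gave 4 higher and 1 lower, beside 6.81% and 4.54% of all genes, and 7 higher and 1 lower without the mixed cells, beside 8.48% and 6.51%. Its median of 0.29 ran from -0.034 to 0.58 with each load left out, so that its sign is not settled. Irf7, the factor that amplifies the type I response, went the other way, at 164 CPM in NTT and 256 in RTT, and 279 in RTT_ROSA26 and 77.6 in RTT_PTGS12KO.

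Chemokine levels differed widely between the samples, and several rested on 1 cell. Ccl22 and Ccl17, which draw T cells bearing CCR4 and regulatory T cells among them, lie 58.8 kb apart on chromosome 8, with Cx3cl1 between them. Ccl17 reached 137 CPM in NTT and 51.2 in RTT, and 152 in RTT_ROSA26 and 608 in RTT_PTGS12KO. Its log2 ratio was 1.99 (1.32 to 2.77) for RTT_PTGS12KO against RTT_ROSA26 and 2.14 (1.81 to 2.49) against NTT. Ccl22, one of the markers that name the cells, reached 652, 631, 245 and 1194 CPM, with ratios of 2.28 (1.75 to 2.87) and 0.87 (0.70 to 1.04). Ccl22 in NTT against RTT went from 0.05 to -0.58 (-0.96 to -0.20) without the mixed cells. RTT_PTGS12KO was highest in both genes, with Ccl17 UMIs in 37 of 81 cells and Ccl22 UMIs in 69.

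Cxcl10, like Cxcl9 a ligand of CXCR3 and its neighbour on chromosome 5, was highest in NTT at 805 CPM and next highest in RTT_PTGS12KO at 456, with 196 in RTT and 101 in RTT_ROSA26. The log2 ratio of NTT over RTT was 2.03 (1.43 to 2.71) and that of RTT_PTGS12KO over RTT_ROSA26 2.16 (1.35 to 3.14), with 1.42 (0.79 to 2.13) and 4.28 (2.48 to 7.40) without the mixed cells. Cxcl16, which binds CXCR6 on tissue T cells, was nearly level at 909, 862, 1014 and 834 CPM. Ccl5, which draws T cells, stood at 7542, 4368, 5355 and 4870 CPM.

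The inflammatory chemokines that draw neutrophils and monocytes came from few cells. In NTT 62.3% of the Cxcl2 UMIs, 83.5% of the Ccl2 UMIs and 91.9% of the Ccl7 UMIs were in 1 cell each. Cxcl2 reached 1762, 1544, 186 and 329 CPM, and 103 in RTT without the mixed cells. Ccl4 was at 391, 76.8, 836 and 189 CPM, and 1 cell held 91.9% of its UMIs in RTT_ROSA26. Over the list, 8 of 15 chemokines were at least 2-fold higher and 1 lower in NTT than in RTT (median 1.12), beside 10.1% and 5.85% of all genes. For RTT_PTGS12KO against RTT_ROSA26 5 were higher and 3 lower (median 0.13), beside 6.81% and 4.54%, with 6 higher and 1 lower of 13 without the mixed cells, beside 8.48% and 6.51%. In RTT_PTGS12KO against NTT 2 were higher and 6 lower (median -0.63), beside 1.18% and 1.66%. Ccl7 and Cxcl3 reached the minimum of 50 CPM only through NTT, and Cxcl1 only through RTT. Their places in these counts are therefore no support for them.

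Of the cytokines, Il12b, the p40 chain of interleukin-12 that drives type 1 T cell responses, had UMIs in 22 of 89, 3 of 12, 3 of 14 and 31 of 81 cells. It stood at 188 CPM in NTT and 495 in RTT, and 177 in RTT_ROSA26 and 393 in RTT_PTGS12KO. In RTT 96.6% of its UMIs came from 1 cell, so that value is not one of the sample. Il1b reached 1907, 452, 2475 and 2269 CPM, lowest in RTT, and NTT over RTT gave a log2 ratio of 2.07 (1.68 to 2.50), and 1.93 (1.45 to 2.46) without the mixed cells. Il15, a growth factor of CD8 T and NK cells, had 32, 0, 4 and 29 UMIs (50.5, 0, 33.8 and 38.8 CPM), with RTT_ROSA26 close to RTT_PTGS12KO. Its presenting receptor Il15ra stood at 109, 42.7, 16.9 and 88.3 CPM, higher in NTT and RTT_PTGS12KO than in either resistant control. The level in RTT_ROSA26 lies under the 25.3 CPM that 3 UMIs equal there. The log2 ratio of Il15ra in NTT over RTT was 1.33 (0.06 to 3.02), and 1.34 (-0.25 to 3.67) without the mixed cells.

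Checkpoint and regulatory genes were mostly higher in NTT than in RTT. Cd274, which encodes PD-L1, reached 698 CPM in NTT and 499 in RTT_PTGS12KO, with 247 in RTT and 262 in RTT_ROSA26. The log2 ratio of NTT over RTT was 1.49 (0.95 to 2.09) and that of RTT_PTGS12KO over RTT_ROSA26 0.93 (0.40 to 1.51), with 0.96 (0.38 to 1.61) and 0.62 (0.08 to 1.21) without the mixed cells. Pdcd1lg2, the gene of PD-L2, lies 22.8 kb from it on chromosome 19 and reached 243, 102, 135 and 226 CPM, with a ratio of NTT over RTT of 1.24 (0.40 to 2.23), and 0.77 (-0.14 to 1.87) without the mixed cells. Both ligands were highest in NTT and next highest in RTT_PTGS12KO, and the resistant controls did not lie apart beyond counting error. Il4i1, an amino acid oxidase that restrains T cells, reached 352, 111, 220 and 269 CPM, with a ratio of NTT over RTT of 1.66 (0.86 to 2.60), and 1.13 (0.27 to 2.16) without the mixed cells.

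All 10 genes of this list at the minimum were higher in NTT than in RTT, 4 of them at least 2-fold (Cd274, Pdcd1lg2, Il4i1 and Cish) beside 10.1% of all genes, with a median of 0.79. Without the mixed cells 11 genes reached the minimum, 7 were higher, and 3 of these at least 2-fold (Il4i1, Socs3 and Cish) beside 12.6% of all genes, so that both PD-1 ligands fell under 2-fold. In RTT_PTGS12KO against RTT_ROSA26 2 were at least 2-fold higher, Ccl22 and Cish, beside 6.81% of all genes. Cish, an inhibitor of cytokine signalling, stood at 122 against 42.2 CPM. Without the mixed cells 4 of 11 were higher, beside 8.48%. Ccl22 is also one of the markers that name the cells. Cish, at 64.7 CPM in NTT and 17.1 in RTT, reached the minimum of 50 CPM only through RTT_PTGS12KO. Neither gene is therefore support for the count with all cells. Aldh1a2, which makes retinoic acid, had 33 UMIs in 8 cells of RTT_PTGS12KO, 2 UMIs in NTT and 0 in the resistant controls, where 3 UMIs would equal 25.6 and 25.3 CPM.

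Of the costimulatory genes, Cd40 stood at 212, 196, 135 and 167 CPM, Cd80 at 103, 93.9, 160 and 106, and Cd86 at 399, 358, 431 and 336. Of 10 genes 3 were at least 2-fold higher in NTT than in RTT (Tnfrsf9, Slamf7 and Icam1), beside 10.1% of all genes. The ratio of Tnfrsf9 fell under 2-fold, to 0.40 (-0.24 to 1.12), without the mixed cells, where Tnfsf9, Slamf7 and Icam1 were higher and Ly75 lower, beside 12.6% and 5.93%. Slamf7, a receptor of the SLAM family, stood at 242, 68.3, 169 and 191 CPM, a ratio of 1.81 (0.81 to 3.06) of NTT over RTT, and 1.49 (0.34 to 2.96) without the mixed cells. Tnfsf9, the ligand of 4-1BB, stood at 148, 137, 389 and 91.0 CPM, highest in RTT_ROSA26. In RTT_ROSA26 against RTT 2 genes, Tnfsf9 and Slamf7, were higher and 0 lower, beside 7.9% and 9.03% of all genes, and 3 higher and 2 lower without the mixed cells, beside 12.9% and 12.9%. Icam1 was higher and Tnfsf9 lower in RTT_PTGS12KO than in RTT_ROSA26, beside 6.81% and 4.54% of all genes. The medians lay between -0.34 and 0.30.

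Prostaglandin genes were looked at because the knockout took cyclooxygenases, which start prostaglandin synthesis, from the cancer cells. Ptger4, the prostaglandin E2 receptor EP4, stood at 170 CPM in NTT and 102 in RTT, and 194 in RTT_ROSA26 and 122 in RTT_PTGS12KO. Ptger2, the receptor EP2, had 1, 0, 0 and 1 UMIs. The DCs' own Ptgs2 had 211, 3, 14 and 169 UMIs (333, 25.6, 118 and 226 CPM), in 23, 2, 6 and 21 cells, and the log2 ratio of NTT over RTT was 3.65 (2.13 to 5.99), and 2.94 (1.40 to 5.26) without the mixed cells. Of the 9 genes of this list at the minimum 1, Ptgs2, was at least 2-fold higher in NTT than in RTT, a share near the 10.1% of all genes, and 2, Nr4a1 and Areg, in RTT_PTGS12KO than in RTT_ROSA26 beside 6.81%, although Areg had UMIs in only 7 cells of the knockout sample. Without the mixed cells 2 genes were lower in each of these comparisons, Nr4a2 and Areg in the first and Crem and Nr4a2 in the second, beside 5.93% and 6.51% of all genes.

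Immediate-early and heat-shock genes, which respond to tissue digestion and other stress, were mostly lowest in RTT. In RTT_ROSA26 against RTT 6 of 18 genes were at least 2-fold higher and 0 lower (median 0.38), beside 7.9% and 9.03% of all genes, and 9 and 0 without the mixed cells, beside 12.9% and 12.9% (median 0.88, or 0.62 with the gene at 0 UMIs set to its bound). Hspa1a, a heat-shock chaperone, stood at 428, 427, 938 and 490 CPM, a log2 ratio of RTT_ROSA26 over RTT of 1.13 (0.64 to 1.65), and 2.09 (1.38 to 2.89) without the mixed cells. Dusp1, an immediate-early phosphatase, stood at 518, 503, 1107 and 669 CPM, a ratio of 1.13 (0.68 to 1.61). RTT_ROSA26 was highest in both. In NTT against RTT 4 genes were higher and 0 lower (median 0.26), beside 10.1% and 5.85% of all genes, and 6 and 0 without the mixed cells (median 0.86), beside 12.6% and 5.93%. In RTT_PTGS12KO against RTT_ROSA26 0 were higher and 3 lower (median -0.23), beside 6.81% and 4.54%, and in RTT_PTGS12KO against NTT none passed 2-fold (median -0.15). These genes moved with the comparisons that involve RTT and RTT_ROSA26, and their part in the other differences between those samples was not tested.

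The remaining lists had few genes past 2-fold or moved with the mixed cells. The 12 glycolysis and hypoxia genes had medians of 0.08 in NTT against RTT, 0.11 in RTT_PTGS12KO against RTT_ROSA26, 0.14 in RTT_ROSA26 against RTT and 0.13 in RTT_PTGS12KO against NTT, and of 0.69, 0.10, 0.43 and -0.16 without the mixed cells. The 4 genes of S phase and mitosis had medians of 0.36, 0.26, -0.18 and -0.03 in that order, and of -0.11, 0.40, -0.78 and -0.10 without the mixed cells. The 11 genes of antigen uptake and pattern recognition were lower in NTT than in RTT with a median of -1.29, and higher with a median of 1.09 over 9 genes without the mixed cells.

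**Figure D4:**
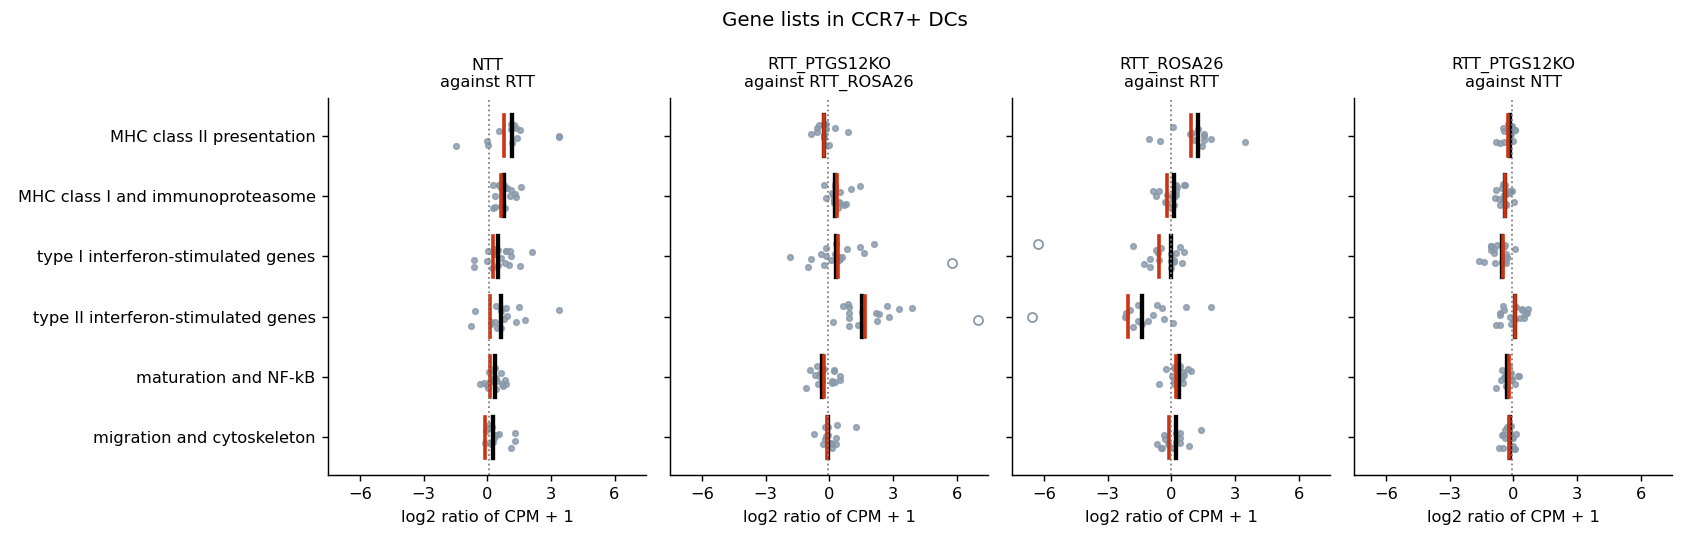
Log2 ratios of CPM + 1 of the genes of 6 lists (points) in 4 comparisons, on linear axes, with black bars at the median of all cells, red bars at the median without the mixed cells and a dotted line at the median of all genes. Open circles are genes with 0 UMIs in 1 of the 2 samples, whose ratio is no bound. The class II list lies to the right in both comparisons with RTT (medians 1.16 and 1.25), and the type II interferon list to the right in RTT_PTGS12KO against RTT_ROSA26 (1.53) and to the left in RTT_ROSA26 against RTT (-1.39).

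The genes standing furthest apart, ranked by the bound of their interval nearest to 0, fell into a few kinds. In NTT against RTT the 5 highest were Ptgs2, Ccnd1, Ly6c2, Ptafr and Il1b. Ly6c2, one of the monocyte markers, stood at 216, 17.1, 8.45 and 93.7 CPM, and its ratio of 3.59 was 2.89 without the mixed cells. Ptafr, the receptor of platelet-activating factor, had 136 UMIs in NTT and 2 in RTT, a log2 ratio of 3.58 (1.77 to 6.71), and Ccnd1, which encodes cyclin D1, had 107 and 1, a ratio of 4.16 (1.80 to 9.62), and 3.47 (1.05 to 8.88) without the mixed cells. The 5 lowest, Cxcl1, Apoe, Pf4, Ctla2a and Spp1, rested on the mixed cells and on 1 cell with 98.3% of the Cxcl1 UMIs of RTT. Apoe went from 16732 CPM in RTT to 221 without the mixed cells.

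In RTT_PTGS12KO against RTT_ROSA26 the 5 highest were Cxcl9, Iigp1, Gbp5, S100a8 and Bcl2l14, of which 3 are interferon-stimulated genes of the list above. S100a8 came with 89.2% of its UMIs from 1 cell of the knockout sample. The 5 lowest, Pf4, Ms4a7, Ccl4, Fcrls and Ctsl, were high in the mixed cells or, for Ccl4, in 1 cell of RTT_ROSA26.

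RTT_PTGS12KO against NTT compared the best covered samples. Beside S100a8 and S100a9, mostly from 1 cell, the highest genes were Ccl17, Cd81 and Hfe. Cd81, a tetraspanin, stood at 41.0 CPM in NTT and 210 in RTT_PTGS12KO (282 in RTT and 296 in RTT_ROSA26), a log2 ratio of 2.33 (1.75 to 3.01) and of 1.85 (1.21 to 2.59) without the mixed cells. Hfe, a regulator of iron uptake, stood at 96.3 CPM in NTT and 293 in RTT_PTGS12KO, a ratio of 1.60 (1.19 to 2.04). NTT was lowest in Cd81, and RTT_PTGS12KO highest in Hfe.

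The lowest genes of that comparison were Cxcl3, Cxcl2, Ccl7, Plac8 and Il1r2, the first 3 of which had most of their NTT UMIs in 1 cell. Il1r2, the decoy receptor of interleukin-1, which stands in both the neutrophil and the cDC2 marker lists, stood at 560 CPM in NTT and 128 in RTT, and 253 in RTT_ROSA26 and 149 in RTT_PTGS12KO, a ratio of -1.91 (-2.24 to -1.60). Plac8, another of the monocyte markers, stood at 1283, 751, 524 and 367 CPM, a ratio of -1.80 (-2.01 to -1.61). Stat4, which relays interleukin-12, stood at 409, 307, 203 and 233 CPM, a ratio of -0.81 (-1.10 to -0.53). NTT had the highest level in each of these 3 genes.

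The cDC2s, the most numerous DCs with 282, 174, 288 and 344 cells, gave another picture for some lists. The class II median for NTT against RTT was 0.01 in cDC2s and 1.16 in CCR7+ DCs, and for RTT_ROSA26 against RTT 0.13 and 1.25. With each load left out the CCR7+ DC values ran from 0.44 to 2.11 and from 0.32 to 2.28. The type I median for NTT against RTT was 1.98 in cDC2s and 0.53 in CCR7+ DCs, and for RTT_PTGS12KO against RTT_ROSA26 2.18 and 0.29. The type II median for RTT_PTGS12KO against RTT_ROSA26 was 3.12 in cDC2s and 1.53 in CCR7+ DCs, in the same direction. Whether these medians differ between the cell types was not tested, since each group is 1 sample, and the number of CCR7+ DCs in RTT and RTT_ROSA26 leaves each list there with few UMIs.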

How the data were processed

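CD45+ cells sorted from 4 tumour samples were labelled with multiplexing oligos, pooled and loaded 3 times, so the samples share the free RNA of each load. Barcodes that 2 samples share numbered 0 within a load and 75 across loads, none among CCR7+ DCs. The authors deposited UMI counts per gene and cell and a table of sample and cell type per cell. They came from Cell Ranger, as the study's methods say, with the mm10 reference, cells with more than 1000 genes were kept (the lowest here has 1001), and names were given in Seurat 4.3.0 after Harmony integration. The oligos can tell doublets between samples. The study's methods name no doublet caller, and none was run here.

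UMIs were summed over the CCR7+ DCs of a sample, scaled to 1000000 (CPM) and set against each other as log2 ratios, with a pseudocount of 1 CPM, in Python 3.11.15 (numpy 2.4.6, scipy 1.17.1, pandas 2.3.3, matplotlib 3.10.9). A gene entered a list's median and counts at a mean over the 4 samples of 50 CPM or more, which a gene high in 1 sample can reach. A fold against 0 UMIs was taken against 3 UMIs. Named genes were those of the lists, and the 5 highest and 5 lowest of 3 comparisons, among genes whose higher sample had 100 CPM or more. Scripts were tested on simulated data. The members and lists were chosen with earlier results of these data known. Alternatives were CPM + 10, TMM factors (edgeR 4.0.16, R 4.3.3), a minimum of 200 CPM or none, equal weight of cells, a stricter cell filter (more than 1500 genes, less than 10% mitochondrial UMIs), a Ccr7 UMI required, at least 4 markers in any cell, another denominator, cells with 3 or more C1q UMIs left out, the leading cell left out, and each load left out. Leaving out the mixed cells, and the cell with most UMIs of a gene, was chosen after seeing the data. Promoters came from RefSeq, and 27025 genes had one. The single values of 1 gene of the type II interferon list are not reported here.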

Additional observations from a re-analysis of the deposited data

How the results depend on the processing

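No paired analysis was possible because there is only 1 sample in a group. The shares of CCR7+ DCs and their log2 ratios stayed within the counting interval of the reported value in 88 of 88 recomputed values. The per-cell medians moved by less than the SD over cells in 112 of 112, although that SD is a wide limit for a median. With each load left out the class II median cell of RTT_ROSA26 ran from 1.294% to 2.735%. The type I median cell of RTT ran from 0.303% to 0.584%. For the class II, type I, type II and NF-kB lists 202 of 208 recomputed medians stayed within the median bounds of their genes' counting intervals. The class II median of RTT_PTGS12KO against NTT was -0.44 without cells of 3 or more C1q UMIs. Leaving out each load in turn moved the class II median between 0.44 and 2.11 for NTT against RTT, between 0.32 and 2.28 for RTT_ROSA26 against RTT and between -0.21 and -0.028 for RTT_PTGS12KO against NTT, and the NF-kB median of RTT_PTGS12KO against RTT_ROSA26 between -0.75 and 0.092.

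Changes of sign came with few cells. For NTT against RTT, leaving out cells of 3 or more C1q UMIs or the mixed cells gave 0.83 and 1.09 for the antigen uptake list, 0.13 and 0.37 for Apoe, and 1.25 and 0.52 for Pf4. For RTT_PTGS12KO against RTT_ROSA26, Pf4 was 1.13 without the mixed cells, and Ccl4 was 1.20 without them, 0.74 without the leading cell and from -2.72 to 2.24 with each load left out. For RTT_PTGS12KO against NTT, S100a8 was -0.47, -0.52 and -0.36 without C1q cells, mixed cells and the leading cell, and S100a9 was -1.16, -0.77 and -0.57, and from -0.31 to 2.69 with each load left out. For NTT against RTT, Il12b was 2.90 without the leading cell and ran from -1.93 to 7.01 with each load left out. Of the other lists 538 of 572 medians, and of the named genes 401 of 572 ratios, stayed within the interval of the reported value. With 12 and 14 cells in RTT and RTT_ROSA26, 3 UMIs already equal 25.6 and 25.3 CPM there. The cause of these moves was not tested beyond the cells and loads left out.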
